A study of Mus with 6 samples.

Results

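Microglia are the resident macrophages of the brain, and perivascular macrophages are related cells that sit along its vessels and membranes. The 29 genes described here mark these cells. They were taken from the deposited expression table by gene name, 29 rows of 54532, and all 29 passed the filter of a mean of at least 0.5 FPKM (fragments per kilobase of gene, normalised for sequencing depth) that 16155 genes passed. RNA sequencing compared 3 libraries from mice labelled wild type (WT) with 3 from mice labelled CNTNAP4-KO (KO), a knockout named for the neuronal adhesion gene Cntnap4. All 6 are labelled male and as basolateral amygdala, a brain region known for fear memory. Strain, age, treatment and how the knockout was made were not given in the sources used here. Separate mice are stated only by the numbers in the labels. P-values therefore measure the spread between these samples, which may be technical.

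Homeostatic microglia survey the tissue with surface receptors such as Cx3cr1, P2ry12 and Csf1r, and their identity depends on the transcription factors Spi1, Irf8 and Sall1. Phagocytic function rests on lysosomal proteins and on receptors such as Trem2 and the Fc receptors, which signal through the adaptors Tyrobp and Fcer1g. Perivascular macrophages are known for the scavenger receptors Cd163 and Mrc1. The genes were accordingly described in 4 classes, with 12 homeostatic genes, 6 phagocytic genes, 8 genes shared by myeloid cells and 3 perivascular macrophage genes.

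The libraries held 17647556 to 20813211 reads in genes, and the 29 genes took 0.0668% to 0.0915% of them. Below, 3 values per group are always in the order of replicates 1, 2 and 3. Cntnap4 stood at 2.03, 3.59 and 4.91 FPKM in WT against 1.61, 1.00 and 1.48 in KO. The library labelled KO replicate 1 goes against its labelled sex, with 14528 reads of Xist and 0 reads of Ddx3y, where the other libraries had at most 11 and at least 1219. WT replicate 3 stood apart in mitochondrial transcripts, which took 3.42% of its reads against 5.63% to 8.14% in the others. KO replicate 2 held the most excitatory neuron transcripts and the least oligodendrocyte transcripts.

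Most of the 29 genes measured lower in KO than in WT, and no single gene passed the test. In each KO library Fcrls, Siglech, Olfml3 and Trem2 were below all WT values, whereas the lysosomal gene Cd68 was higher in every KO library. The 3 perivascular macrophage genes had higher means in KO with overlapping groups. Of the 29 log2 differences (KO minus WT, on log2(FPKM + 0.5)), 23 were negative, where 48.5% of all tested genes were. Their median was -0.18, against 0.01 over all 16155 tested genes.

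By limma with Benjamini-Hochberg adjustment over all tested genes, 0 of the 29 passed the threshold of 0.05, where 2 genes or 0.0124% passed in all. Adjusted p among the 29 ran from 0.187 to 0.993. At an unadjusted p under 0.05, 8 of the 29 were lower in KO and 1 was higher. Over all tested genes those shares were 6.85% lower and 8.36% higher. The groups did not overlap for 10 of the 29, with 9 below and 1 above WT. Over all tested genes 10.8% lay below and 11.8% above. Voom on the reads recovered from the FPKM values called 0 of the 29 as well. At an unadjusted p under 0.05 it had 9 lower and 1 higher. Over all tested genes, voom had 10.1% lower and 6.20% higher. The 8 became 4 without WT replicate 2 and 4 without KO replicate 2, and the 1 higher gene, Cd68, missed that threshold without KO replicate 1 or KO replicate 2. Fewer cells and less RNA per cell cannot be told apart in tissue pieces.

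**Figure D1:**
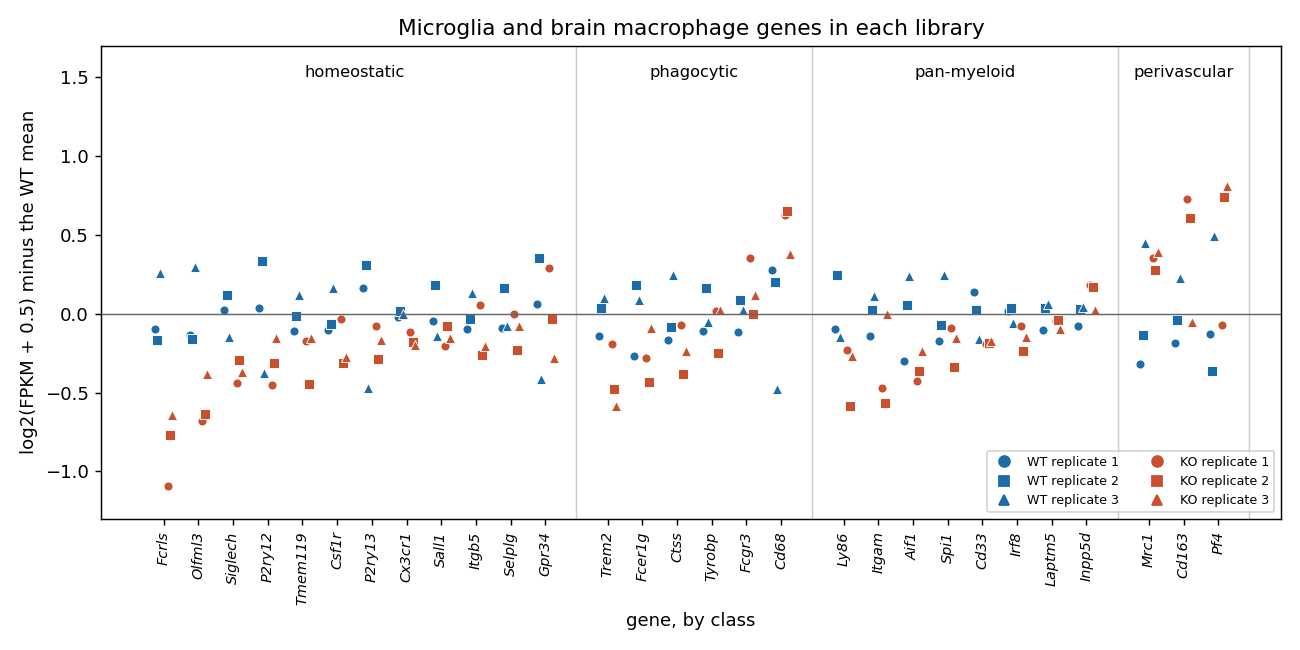
Each point is 1 library's log2(FPKM + 0.5) minus the mean of the 3 WT libraries, for each of the 29 genes in their 4 classes (blue WT, orange KO, marker shape for the replicate number). Fcrls and Olfml3 lie farthest below the line in KO, Cd68 lies above it, and the 3 perivascular genes spread widely in both groups.

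Among the homeostatic genes, all 12 log2 differences were negative, with a median of -0.19 and a range of -0.83 to -0.01. At an unadjusted p under 0.05, 5 were lower and 0 higher. The same 5 did not overlap between the groups, namely Fcrls, Olfml3, Siglech, Tmem119 and Cx3cr1. The class mean of log2(FPKM + 0.5) was 3.38, 3.50 and 3.36 in WT against 3.17, 3.10 and 3.16 in KO. Every KO library thus lay below every WT library for the class as a whole. The same held for the class of genes shared by myeloid cells. For all 29 genes together, which include both classes, it held by a small margin. Their mean was 2.69, 2.82 and 2.80 in WT against 2.67, 2.59 and 2.65 in KO. Their summed FPKM overlapped, at 304 to 345 in WT and 267 to 306 in KO. The phagocytic class mean overlapped as well, at 3.86 to 4.05 in WT and 3.80 to 4.02 in KO.

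Fcrls, an Fc receptor-like scavenger receptor gene used as a marker of mouse microglia (ENSMUSG00000015852, chromosome 3, 87250758 to 87263738, minus strand, GRCm38), had the largest difference of the 29. It measured 9.87, 9.39 and 12.8 FPKM in WT against 4.69, 6.01 and 6.60 in KO. Behind these levels were 394 to 647 reads in WT and 206 to 273 reads in KO. The lowest WT library was above the highest KO library, and their 95% Poisson intervals, 8.48 to 10.4 FPKM and 5.84 to 7.43 FPKM, were apart. Such intervals cover counting error only. The KO mean was 54.1% of the WT mean, at a log2 difference of -0.83 ± 0.15 (SE, limma adjusted p = 0.187). Its adjusted p ran from 0.0765 to 0.364 over the 18 alternative settings and the reported one. Without KO replicate 1, its lowest library, the difference was -0.70.

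Siglech encodes a member of the sialic acid-binding receptor family that pairs with the adaptor Tyrobp. The gene lies on chromosome 7 (55768178 to 55778925, plus strand). It stood at 7.40, 7.94 and 6.53 FPKM in WT against 5.22, 5.85 and 5.52 in KO. The KO libraries were close together and all below WT. The log2 difference was -0.37 ± 0.09 (limma adjusted p = 0.207). Olfml3, a secreted olfactomedin-like protein gene expressed in microglia, lies on chromosome 3 (103722222 to 103738001, minus strand). It stood at 3.71, 3.64 and 5.20 FPKM in WT against 2.39, 2.47 and 3.06 in KO. Here WT replicate 3 was high, and every KO library was still below the other WT libraries. The log2 difference was -0.57 ± 0.15 (adjusted p = 0.219), and -0.42 without WT replicate 3.

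Tmem119, a transmembrane protein gene that marks resident microglia, stood at 14.2, 15.2 and 16.7 FPKM in WT against 13.6, 11.1 and 13.7 in KO. WT replicate 1 and the KO libraries 1 and 3 were close neighbours. The log2 difference of -0.26 ± 0.11 (limma adjusted p = 0.319) became -0.16 without KO replicate 2, and its unadjusted p of 0.0457 became 0.117. Cx3cr1, the receptor for the neuronal chemokine Cx3cl1, stood at 14.5, 14.9 and 14.7 FPKM in WT against 13.6, 12.9 and 12.7 in KO. Its spread within WT was the smallest of the class relative to its level (SD 0.188), and the KO mean was 88.9% of WT at log2 -0.16 ± 0.06 (adjusted p = 0.299). The annotated Cx3cr1 gene (chromosome 9, 119901616 to 120069879) spans several other genes, among them Csrnp1 and Gorasp1 on the same strand, so its value is uncertain where reads are shared.

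**Figure D2:**
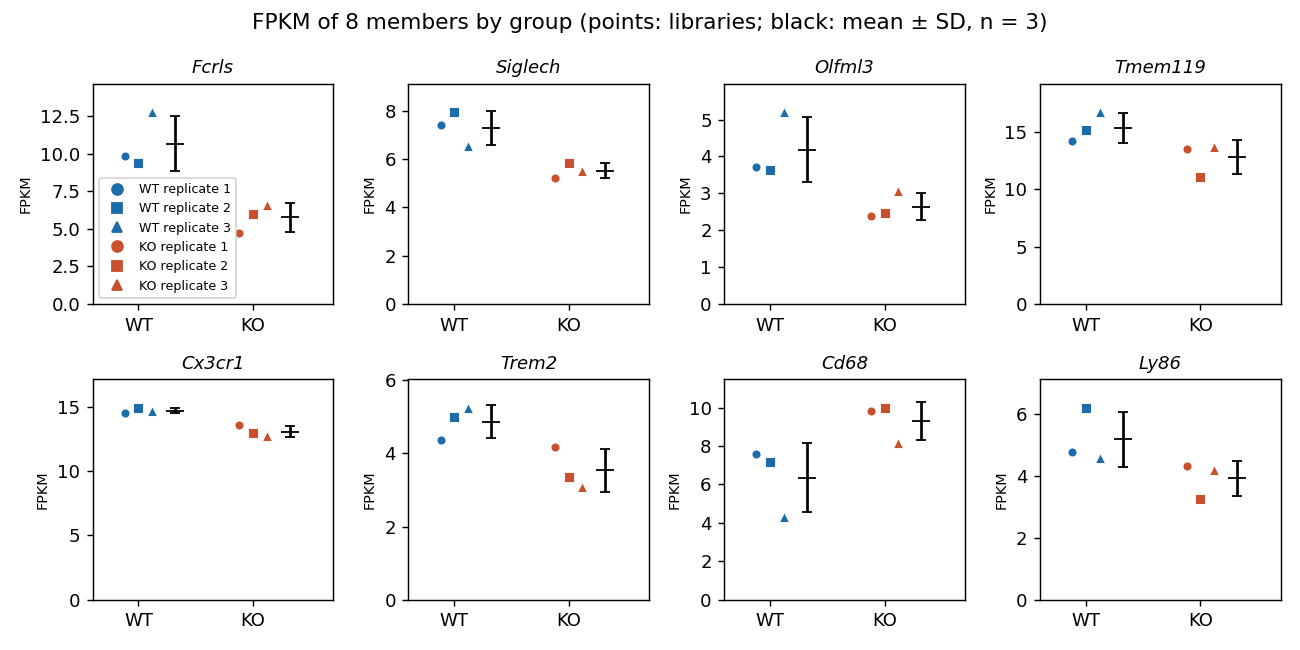
FPKM of 8 of the genes in each library (blue WT, orange KO), with the group mean and SD in black and every axis starting at 0. The 8 are the genes with an unadjusted limma p under 0.05 and no overlap between the groups, so the panels do not overlap by choice. KO is below WT for 7 of them and above WT for Cd68. Of all 29 genes, 9 lay below WT and 1 above without overlap, and the others overlapped.

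The purinergic and lipid-sensing receptors differed more between the WT libraries than between the groups. P2ry12, the ADP receptor that guides microglial processes, stood at 17.2, 21.3 and 12.8 FPKM in WT against 12.1, 13.4 and 15.1 in KO. Its relative P2ry13 stood at 6.75, 7.52 and 4.17 FPKM in WT against 5.64, 4.81 and 5.27 in KO. Gpr34, the lysophosphatidylserine receptor on the X chromosome, stood at 7.16, 8.89 and 5.02 FPKM in WT against 8.50, 6.69 and 5.56 in KO. In each of the 3, WT replicate 2 was the highest of all libraries and WT replicate 3 the lowest WT library. Their log2 differences were -0.30 ± 0.18, -0.18 ± 0.20 and -0.01 ± 0.22, with limma adjusted p = 0.462, 0.699 and 0.993. Without WT replicate 3, the library low in mitochondrial reads, P2ry12 stood at -0.49 (adjusted p = 0.306), and without WT replicate 2 at -0.14. P2ry13 stood at -0.41 without WT replicate 3, -0.023 without WT replicate 2 and -0.095 without WT replicate 1. Gpr34 had either sign when 1 library was left out, from -0.21 to 0.17. P2ry12 and P2ry13 lie within Med12l and Gpr34 within Cask, each on the opposite strand, and the sources used here do not say whether counting used strand.

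The remaining homeostatic genes overlapped between the groups. Csf1r, the receptor for the survival factors Csf1 and Il34, averaged 24.6 ± 2.51 FPKM in WT against 21.2 ± 2.34 in KO (SD, n = 3 each), with WT replicate 3 highest at 27.4 FPKM. Sall1, a transcription factor gene that maintains microglial identity, averaged 6.05 ± 0.760 against 5.40 ± 0.260 FPKM. The integrin subunit gene Itgb5 averaged 17.5 ± 1.49 against 15.9 ± 1.98 FPKM, and the selectin ligand gene Selplg 8.91 ± 0.968 and 8.25 ± 0.687 FPKM. The KO means of these 4 genes stood between 86.5% and 92.6% of WT. Each KO mean was below the lowest WT library, while single KO libraries reached into the WT range. Their log2 differences were -0.21 for Csf1r, -0.15 for Sall1, -0.14 for Itgb5 and -0.10 for Selplg. Csf1r stood at -0.13 without WT replicate 3, and Sall1 at -0.055 without WT replicate 2. Itgb5 stood at -0.23 without KO replicate 1, -0.075 without KO replicate 2 and -0.072 without WT replicate 3. Selplg stood at -0.019 without WT replicate 2 and -0.039 without KO replicate 2.

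The phagocytic genes did not share a direction. Of the 6, 4 log2 differences were negative and 2 positive, with a median of -0.15 and a range of -0.42 to 0.55. At an unadjusted p under 0.05, 1 was lower, Trem2, and 1 higher, Cd68. The median depended on single libraries, at -0.07 without KO replicate 2 and -0.08 without WT replicate 2.

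Trem2, the lipid-sensing receptor of phagocytic microglia (ENSMUSG00000023992, chromosome 17, 48346401 to 48354147, plus strand), stood at 4.36, 5.0 and 5.24 FPKM in WT against 4.18, 3.35 and 3.07 in KO. WT replicate 1 and KO replicate 1 were nearly level, and the others were well apart. The log2 difference was -0.42 ± 0.13 (limma adjusted p = 0.236). Tyrobp, the adaptor also called DAP12 through which Trem2 signals, stood at 23.3, 28.3 and 24.3 FPKM in WT against 25.6, 21.2 and 25.7 in KO. The receptor and its adaptor therefore differed in their measurements, as Tyrobp had a log2 difference of -0.07 ± 0.11 (adjusted p = 0.805), which was slightly positive without WT replicate 2 (0.015) or KO replicate 2 (0.023). The ratio of Trem2 to Tyrobp FPKM within a library was 0.187, 0.177 and 0.215 in WT and 0.163, 0.158 and 0.119 in KO. Every KO ratio was below every WT ratio, in a comparison chosen after the values were seen.

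Cd68, a lysosomal membrane glycoprotein gene used as a marker of phagocytic activity (ENSMUSG00000018774, chromosome 11, 69664213 to 69666153, minus strand), was the 1 gene of the 29 above WT in every KO library. It stood at 7.59, 7.17 and 4.28 FPKM in WT against 9.81, 9.98 and 8.17 in KO. WT replicate 3 was far below the other libraries, and WT replicate 1 and KO replicate 3 had overlapping 95% Poisson intervals of 6.51 to 8.80 and 7.03 to 9.45 FPKM. The log2 difference was 0.55 ± 0.21 (limma adjusted p = 0.288). Without WT replicate 3 it was 0.31 (adjusted p = 0.328), which is over 1.5 times smaller. Cd68 rests on 117 to 232 reads per library. Its ratio to Tmem119 within a library was 0.534, 0.473 and 0.256 in WT and 0.723, 0.897 and 0.594 in KO, again chosen after the values were seen. These ratios could not overlap, since every KO library was above WT for Cd68 and below WT for Tmem119. They add nothing to the values of the single genes.

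Ctss, which encodes the lysosomal protease cathepsin S, was the most abundant of the 29 per length. It stood at 84.3, 89.4 and 113 FPKM in WT against 89.9, 72.4 and 80.5 in KO, a log2 difference of -0.23 ± 0.13 (limma adjusted p = 0.450). The difference was -0.11 without WT replicate 3 and -0.15 without KO replicate 2, and the groups overlapped. The Fc receptor gene Fcgr3 stood at 9.46, 11 and 10.5 FPKM in WT against 13.3, 10.3 and 11.2 in KO (log2 0.16, adjusted p = 0.524), a difference of 0.060 without KO replicate 1, 0.10 without WT replicate 1 and 0.24 without KO replicate 2. Its signalling chain gene Fcer1g stood at 11.3, 15.7 and 14.6 FPKM in WT against 11.3, 10.1 and 12.9 in KO (log2 -0.27, adjusted p = 0.414), a difference of -0.40 without WT replicate 1 and -0.18 without WT replicate 2. Both genes overlapped between the groups. Fcgr3 over Fcer1g was 0.702 to 0.834 in WT and 0.871 to 1.18 in KO, a ratio also chosen after the values were seen.

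Genes shared by myeloid cells had a median log2 difference of -0.19, with 7 of 8 negative and a range of -0.36 to 0.13. At an unadjusted p under 0.05, 2 were lower, Ly86 and Aif1, and 0 higher. Ly86, which encodes MD-1, a partner of the Toll-like receptor relative Cd180, stood at 4.76, 6.19 and 4.59 FPKM in WT against 4.30, 3.26 and 4.18 in KO. Its log2 difference was -0.36 ± 0.14 (limma adjusted p = 0.307), with a narrow gap between WT replicate 3 and KO replicate 1. It was -0.24 without WT replicate 2, its highest library. Aif1, which encodes the microglial stain Iba1, stood at 4.10, 5.37 and 6.19 FPKM in WT against 3.71, 3.89 and 4.31 in KO. KO replicate 3 overlapped WT replicate 1, the log2 difference was -0.34 ± 0.14 (adjusted p = 0.328), and it was -0.22 without WT replicate 3. Its unadjusted p of 0.0499 lay at the edge of the threshold.

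Both transcription factor genes of the class had lower means in KO. Spi1, which encodes PU.1, the master regulator of myeloid cells, averaged 2.20 ± 0.426 FPKM in WT against 1.85 ± 0.203 in KO. Its log2 difference of -0.19 was -0.069 without WT replicate 3, -0.12 without KO replicate 2 and -0.30 under voom. Irf8, its partner in microglial development, stood at 1.22, 1.25 and 1.13 FPKM in WT against 1.11, 0.940 and 1.03 in KO. The Irf8 groups did not overlap, but the difference was small at log2 -0.15 ± 0.12 (limma adjusted p = 0.571), and -0.27 under voom. Cd33, a gene of the sialic acid-binding receptor family, also lay below WT in every KO library. It stood at 1.66 to 2.16 FPKM in WT and 1.61 to 1.64 FPKM in KO, a gap far smaller than the WT spread. Its log2 difference of -0.18 was -0.12 without WT replicate 1. Itgam, the integrin CD11b, averaged 2.29 ± 0.248 against 1.73 ± 0.484 FPKM with overlapping groups, at log2 -0.35. That difference was -0.19 with array quality weights, -0.50 under voom and -0.52 without KO replicate 3. The lysosomal gene Laptm5 was nearly level at 9.85 ± 0.620 and 9.42 ± 0.226 FPKM. Inpp5d, which encodes the phosphatase SHIP1 that opposes receptor signalling, was the only one of the 8 with a positive log2 difference (0.13 ± 0.10, adjusted p = 0.571).

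**Figure D3:**
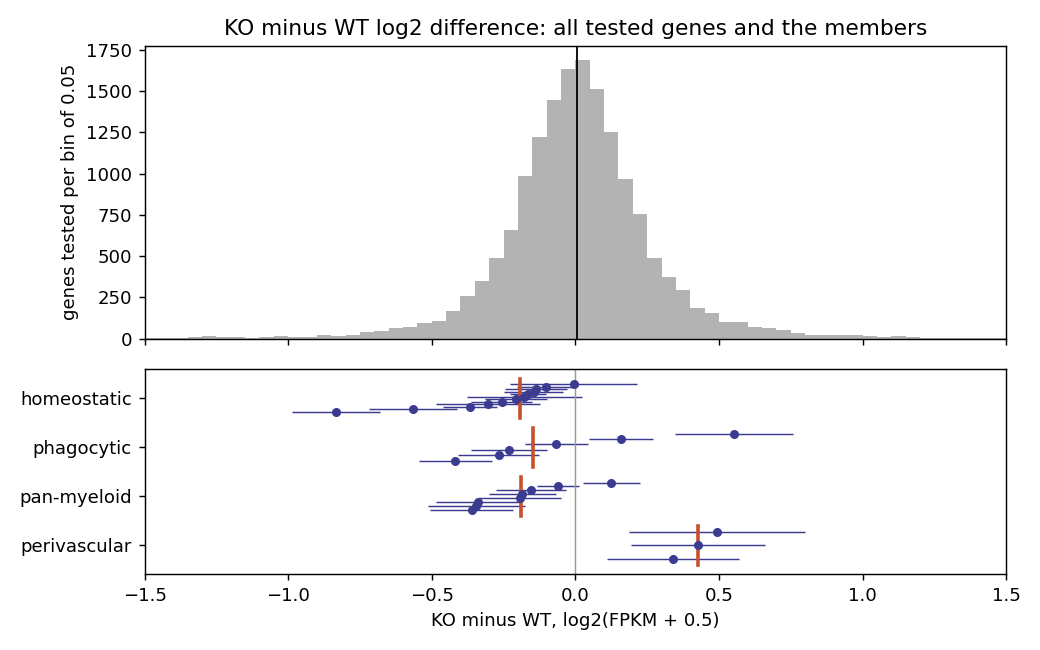
The upper panel counts all tested genes by their KO minus WT log2 difference, with the median as a black line (64 genes lie beyond 1.5 in either direction and are not drawn). The lower panel shows the 29 genes with their standard errors and each class median in orange: 3 medians lie at -0.19 to -0.15 and the perivascular median at 0.43.

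The perivascular macrophage genes had a median log2 difference of 0.43, all 3 positive, and 0 reached an unadjusted p under 0.05. Cd163, the haemoglobin scavenger receptor, stood at 0.625, 0.743 and 0.994 FPKM in WT against 1.62, 1.45 and 0.734 in KO. KO replicates 1 and 2 were above all WT libraries and KO replicate 3 was within them. Mrc1, the mannose receptor CD206, stood at 0.238, 0.340 and 0.758 FPKM in WT against 0.676, 0.616 and 0.709 in KO. Here the KO libraries were alike and WT replicate 3 was the highest of all. Pf4, a chemokine gene shared with platelets, stood at 0.902, 0.694 and 1.66 FPKM in WT against 0.959, 2.07 and 2.19 in KO, on 9 to 28 reads per library. The 3 genes' log2 differences were 0.43 ± 0.23, 0.34 ± 0.23 and 0.49 ± 0.31, with limma adjusted p = 0.430, 0.513 and 0.481.

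Values for this class depended on single libraries and on the scale. Without WT replicate 3, Mrc1 stood at log2 0.57 and Pf4 at 0.74 (limma adjusted p = 0.310 and 0.363). Without KO replicate 3, Cd163 stood at 0.67 (adjusted p = 0.256), and without KO replicate 1 at 0.28. Without KO replicate 1, Pf4 stood at 0.78, and without WT replicate 2 at 0.31. Mrc1 was 0.18 without WT replicate 1. Its difference was 0.67 under voom on recovered reads, 0.60 with a pseudocount of 0.1 and 0.22 with a pseudocount of 1. WT replicate 3 was also the library with the most transcript of the meningeal genes Aldh1a2 (1.60, 5.38 and 8.25 FPKM in WT, 5.53 to 5.82 FPKM in KO) and Slc13a4 (0.419, 2.90 and 4.05 FPKM in WT, 3.00 to 3.22 FPKM in KO). WT replicate 1 was lowest in both. The 10 meningeal and choroid plexus genes summed to 34.5 to 52.6 FPKM in WT and 20.5 to 36.0 FPKM in KO, a sum led by the choroid plexus gene Ttr (24.8 to 29.6 FPKM in WT against 0.634 to 18.7 in KO), and none of them was at 0 throughout. Their part in the perivascular values was not tested.

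Other genes of border-associated macrophages were low or mixed in direction. Of the 20 listed, 10 passed the filter, with a median log2 difference of -0.02, and 4 of these 10 encode MHC class II chains or the associated chain Cd74. Among the 10, 0 were lower and 0 higher at an unadjusted p under 0.05. The lysozyme gene Lyz2 averaged 16.5 ± 6.50 FPKM in WT against 18.9 ± 1.81 in KO, and the transcription factor gene Maf 2.02 ± 0.305 and 2.27 ± 0.209 FPKM. The MHC class II gene H2-Eb1, expressed by antigen-presenting cells at brain borders, stood at 2.98, 3.05 and 7.73 FPKM in WT against 1.48, 4.71 and 4.24 in KO. WT replicate 3 was thus the highest library for H2-Eb1 and Lyz2, as it was for Mrc1. Defining genes such as Lyve1 (0.0557 to 0.210 FPKM in WT, 0.174 to 0.601 FPKM in KO) were too low to be tested. Of the 10 genes below the filter, 9 had higher means in KO, and Clec4n had a lower one (0.209 FPKM in WT and 0.116 in KO).

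Set against each other within a library, homeostatic genes stood lower relative to phagocytic genes in KO. The difference between the class means of log2(FPKM + 0.5) was -0.48, -0.54 and -0.57 in WT against -0.85, -0.70 and -0.72 in KO. The groups did not overlap. The separation depended on Cd68: without that gene the values were -0.65, -0.77 and -0.91 in WT and -0.98, -0.78 and -0.88 in KO, which overlap. Without Cd68 and Fcgr3 the group means were -0.96 and -0.99. These trimmed values were computed after the class values were seen. Homeostatic minus perivascular genes gave 3.31, 3.40 and 2.69 in WT and 2.55, 2.27 and 2.49 in KO, without overlap, and WT replicate 3 was nearest to KO. Homeostatic minus pan-myeloid genes gave 1.62, 1.60 and 1.47 in WT and 1.49, 1.51 and 1.44 in KO, which overlap. No test was run on these class values.

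**Figure D4:**
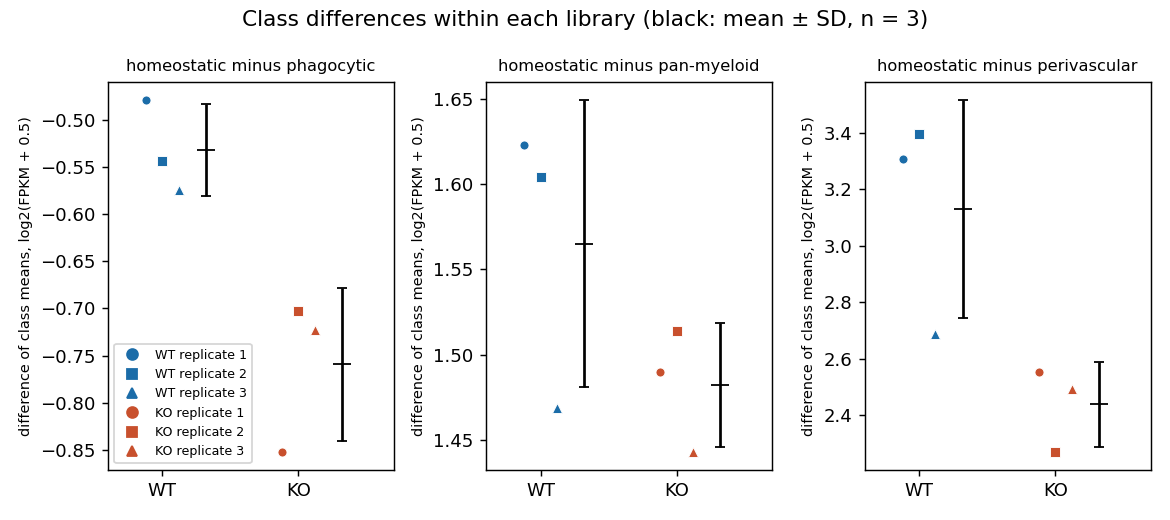
Difference between the class means of log2(FPKM + 0.5) within each library, homeostatic minus each other class, with group mean and SD in black (axes do not start at 0). KO lies below WT in the first panel (-0.85 to -0.70 against -0.57 to -0.48) and in the perivascular panel, and the groups overlap in the pan-myeloid panel.

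Other microglial genes were mixed in direction. Of the 42 listed, 37 passed the filter, with a median of -0.11, and 25 log2 differences were negative and 12 positive. At an unadjusted p under 0.05, 4 were lower and 3 higher, and 0 passed after adjustment over all genes. Rgs10, a regulator of G protein signalling, averaged 27.1 ± 1.27 FPKM in WT against 21.7 ± 2.34 in KO, and Bin2, a membrane-bending protein gene of phagocytes, 3.69 ± 0.362 and 2.79 ± 0.236 FPKM. Tgfbr1, a receptor for the TGF-beta signal that microglia depend on, averaged 7.16 ± 0.925 against 5.60 ± 0.607 FPKM. In the other direction, the actin regulator gene Coro1a averaged 18.8 ± 1.56 against 23.9 ± 3.23 FPKM. Tgfbr1 and Coro1a are also expressed by other brain cells, so their values are not those of microglia alone.

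Genes of the disease-associated microglial state had a median of 0.03 over the 16 of 22 that passed the filter, with 1 lower and 1 higher at an unadjusted p under 0.05. Cd9, a tetraspanin gene also expressed by oligodendrocytes, averaged 25.9 ± 2.35 FPKM in WT against 18.4 ± 2.96 in KO. Lpl, which encodes lipoprotein lipase and is also expressed by neurons, averaged 3.14 ± 0.394 against 5.31 ± 1.35 FPKM. The lysosomal protease genes Ctsb (87.5 ± 1.21 and 98.9 ± 8.88 FPKM) and Ctsd (95.3 ± 4.25 and 85.2 ± 10.1 FPKM) had opposite signs. The list thus had no common direction. Inflammatory mediators had a median of 0.04 over the 7 of 18 that passed the filter, with 0 lower and 0 higher at an unadjusted p under 0.05. Nfkbia, the inhibitor of NF-kappaB, averaged 15.7 ± 2.31 against 20.9 ± 5.56 FPKM. Interferon response genes had a median of 0.13 over the 12 of 13 that passed, also with 0 in either direction, and Ifi27l2a stood at 1.64, 2.88 and 2.98 FPKM in WT against 7.69, 2.39 and 7.80 in KO.

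Ligands and partner signals of microglia, a list that also holds the receptor gene Sirpa and the TGF-beta anchor gene Nrros, had mostly positive differences. Of the 11 tested, 10 log2 differences were positive, with a median of 0.16, and 3 were higher and 0 lower at an unadjusted p under 0.05. Cx3cl1, the membrane-bound neuronal ligand of Cx3cr1, stood at 100, 82.5 and 96.4 FPKM in WT against 108, 162 and 117 in KO, all KO libraries above WT (log2 0.46 ± 0.16, limma adjusted p = 0.277). Its receptor lay below WT in every KO library. Sirpa averaged 51.4 ± 4.36 against 67.2 ± 9.47 FPKM, and its ligand gene Cd47, known as a signal against phagocytosis, 24.4 ± 0.938 and 27.6 ± 0.688 FPKM. Il34, the neuronal ligand of Csf1r, stood at 19.6, 16.9 and 22.1 FPKM in WT against 22.6, 28.8 and 21.5 in KO, with overlapping groups. For Cx3cl1, Sirpa and Il34, KO replicate 2 was highest, as it was for excitatory neuron genes.

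Markers of other cell types moved with the groups as well. The 12 oligodendrocyte genes summed to 1522 to 2013 FPKM in WT and 931 to 1383 FPKM in KO, with a median log2 difference of -0.69 and 12 of 12 negative. The 10 excitatory neuron genes summed to 364 to 430 FPKM in WT and 630 to 940 FPKM in KO, with a median of 0.88 and 10 of 10 positive. The 10 astrocyte genes were near level, with a median of -0.01. The homeostatic genes summed to 134, 146 and 138 FPKM in WT against 122, 111 and 117 in KO. They were lowest in KO replicate 2, the library with the highest excitatory and lowest oligodendrocyte sums. The part of these other cell types in the microglial values was not tested.

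Neutrophil transcripts measured higher in KO too, and neutrophils are known to express Fcgr3, Fcer1g, Tyrobp and Itgam as microglia do. S100a8, a calcium-binding protein gene of neutrophils, stood at 2.03, 2.80 and 2.32 FPKM in WT against 5.75, 7.01 and 15.6 in KO. Retnlg measured at most 0.844 FPKM in WT and 1.81 to 2.24 FPKM in KO. The 13 blood leukocyte genes summed to 6.95 to 12.4 FPKM in WT and 20.0 to 49.6 FPKM in KO. This sum was led by S100a8 and S100a9 (S100a9 at 2.91 to 6.50 FPKM in WT against 9.88 to 24.2 in KO). The listed genes of other leukocytes were all below the filter and mixed in direction. Ccr2, the receptor that defines inflammatory monocytes, was at most 0.286 FPKM in any library, and the T cell gene Cd3e at most 0.0521 FPKM. The part of neutrophil RNA in the values of the shared genes was not tested.

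**Figure D5:**
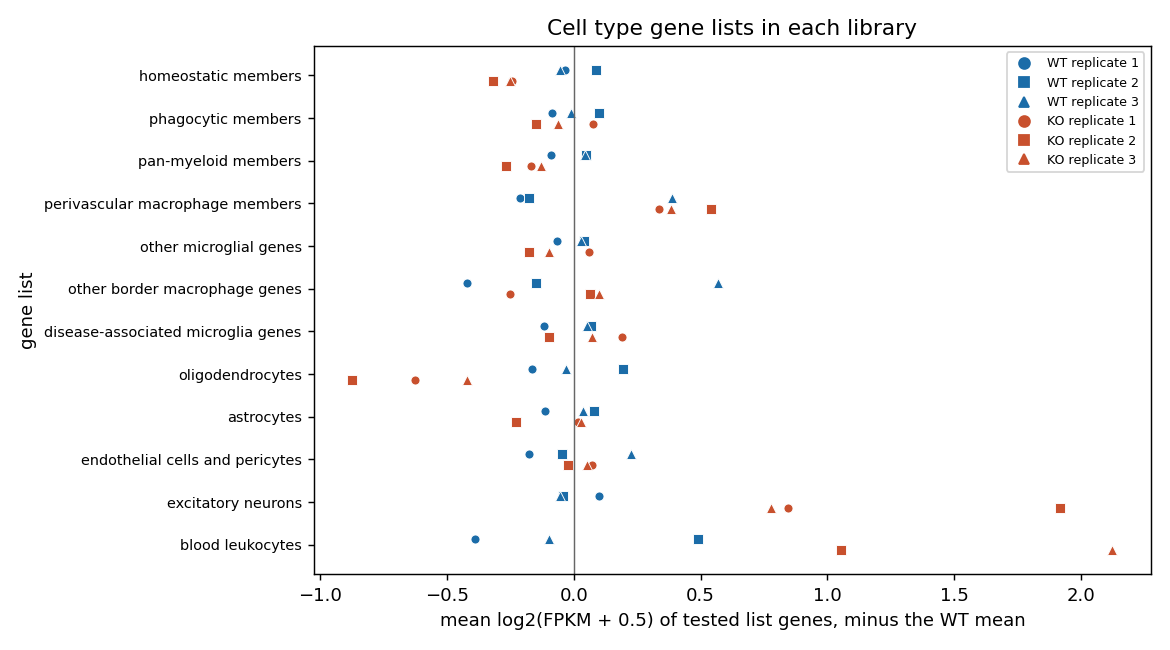
Mean log2(FPKM + 0.5) of each list's tested genes in each library, minus the mean of the 3 WT libraries (blue WT, orange KO). Homeostatic members, pan-myeloid members and oligodendrocyte genes lie to the left in all KO libraries. Excitatory neuron and blood leukocyte genes lie to the right in all KO libraries. Perivascular genes lie to the right in KO with overlap, as WT replicate 3 lies farther right than KO replicates 1 and 3.

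Within a group, many of the members were low in the same library. The counts that follow were not made over all tested genes, so they have no background share beside them. In WT replicate 1, 22 of the 29 genes were below the mean of the 3 WT libraries and 17 were the lowest of the 3. In KO replicate 2, 21 of the 29 were below the KO mean and 14 were the lowest of the 3. WT replicate 3 was split, with 15 genes at their highest and 9 at their lowest among WT libraries. Its highs included Ctss, Csf1r, Fcrls, Olfml3, Aif1 and Spi1, and its lows P2ry12, P2ry13, Gpr34 and Cd68. The genes are measured in the same libraries, so they are not independent of each other.

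By level per length, the 29 genes ran from Ctss at 95.4 ± 15.1 FPKM to Mrc1 at 0.446 ± 0.275 FPKM in WT. Below Ctss came Tyrobp (25.3 ± 2.65) and Csf1r (24.6 ± 2.51), which did not differ beyond their spread, then Itgb5 (17.5 ± 1.49) and P2ry12 (17.1 ± 4.24 FPKM), which did not either. Tmem119 (15.4 ± 1.27), Cx3cr1 (14.7 ± 0.188) and Fcer1g (13.9 ± 2.25 FPKM) formed the next overlapping set. In KO the top 4 were again Ctss (80.9 ± 8.77), Tyrobp (24.2 ± 2.57), Csf1r (21.2 ± 2.34) and Itgb5 (15.9 ± 1.98 FPKM). Fcrls stood above Cd68 in WT (10.7 ± 1.82 and 6.35 ± 1.80 FPKM) and below it in KO (5.77 ± 0.977 and 9.32 ± 0.999 FPKM). Fcrls was the higher of the pair in all 3 WT libraries and Cd68 in all 3 KO libraries, a comparison chosen after the values were seen.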

How the data were processed

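RNA was measured in 6 tissue libraries, 3 WT and 3 KO. Per the labels' protocols, RNA was column-purified and a SMARTer mRNA kit was used for the libraries. The authors deposited 1 table of FPKM values per gene, and per the submitters' processing notes the build was GRCm38 (mm10). Aligner, read counter and annotation version were not given in the sources used here. All 6 columns were matched to samples by name.

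FPKM multiplied by gene length gave whole multiples of 1 step per library, within 0.01 for 100% of nonzero values, and these were taken as reads. Tests used limma 3.58.1 in R 4.3.3 (trend, robust) on log2(FPKM + 0.5) for genes averaging at least 0.5 FPKM, with Benjamini-Hochberg adjustment at 0.05. This scale understates changes of low genes. The procedure was tested on simulated data. Pairing by replicate number, other scalings, pseudocounts, filters and left-out libraries were alternatives.

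Members and lists were chosen with earlier results of these data known. Named genes are the 29 members and up to 4 genes with the smallest p per list. Lyve1, Clec4n, Cd74, Ccr2, Cd3e and the ratios were chosen after their values were seen.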

Additional observations from a re-analysis of the deposited data

How the results depend on the processing

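None of the 29 genes passed the adjusted threshold under any of the 18 alternative settings or at an adjusted p of 0.1. Of 510 log2 values under the alternatives, 6 changed sign. They were Gpr34 without WT replicate 1, WT replicate 2, KO replicate 2 or KO replicate 3 (-0.21 to 0.17 with 1 library left out), and Tyrobp without WT replicate 2 or KO replicate 2 (-0.12 to 0.023). The 23 negative differences became 15 among genes of at least 5 FPKM, where fewer members were tested, and were 21 to 23 with 1 library left out. The 8 members lower at an unadjusted p under 0.05 became 4 among genes of at least 5 FPKM and 5 without trend or robust settings, and were 4 to 9 with 1 library left out. Cd68 had an unadjusted p under 0.05 in 16 of the 19 settings, and missed it with array quality weights and without KO replicate 1 or 2. The 1 higher member became 0 to 3 with 1 library left out. Fcrls and Siglech had an unadjusted p under 0.05 in all 19 settings, the reported one included.

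The median of all members was -0.26 under voom on recovered reads, where the median of all tested genes was -0.038. The pan-myeloid median was -0.29 under voom and -0.060 among genes of at least 5 FPKM, where it rests on Laptm5 alone. No perivascular median could be given at that filter, since all 3 genes were below it.

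Over all genes, 2 passed in the reported fit. The count was 0 with a pseudocount of 0.1, with no filter, at a filter of 5 FPKM and under voom, 5 after rescaling to an equal FPKM sum, 1 under quantile normalization, and 1 with the gene length trend removed by loess, an alternative added after seeing the data. It was 0 to 9 with 1 library left out. After rescaling to an equal sum, 8.17% of genes were lower and 4.09% higher at an unadjusted p under 0.05, and under voom 10.1% and 6.20%, so the direction of the background depends on scaling.

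Replicate numbers showed no sign of pairing. Same-numbered libraries had correlations of deviations of -0.09, -0.14 and -0.07, against -0.042 to 0.118 for the other combinations. With 3 libraries per group these values cannot exclude pairing. With the replicate block, 0 genes passed, 5 members were lower at an unadjusted p under 0.05, and the members' median was unchanged at -0.18. Members rest on 9 to 3322 reads per library, and Pf4 is limited by its depth.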
